A study of Mus musculus with 564 samples.

Results

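The PLK1 inhibitors Volasertib, NMS1286937 and GSK461364 were 3 of the 58 clinical kinase inhibitors (CKIs) whose effect on histone H3 lysine 27 acetylation (H3K27ac) was profiled by ChIP-seq in mouse bone marrow-derived macrophages (BMDMs). Their members were all libraries whose name in the table of normalized reads starts with 1 of these 3 compound names, which gave 27 libraries, 9 for each compound. All BMDMs were differentiated from bone marrow of C57/BL6 mice and were kept for 1 h with a CKI or with the solvent DMSO before stimulation. They were then left unstimulated (UT) or given 10 ng/mL of LPS, a bacterial ligand of TLR4, or of IL-4, a cytokine of type 2 immunity, for 30 min, 1 h, 2 h or 4 h. The rest of the series held 18 DMSO libraries, 2 for each stimulus and time, and 519 libraries of the other 55 CKIs, and both served as references. The signal was counted at 59190 cis-regulatory elements (CREs), of which 59166 had a mean of at least 10 normalized reads and were tested.

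Several features limited what these groups can show. Each PLK1 inhibitor had 1 library per condition, so each effect was a mean over the 4 times of a stimulus. Its error came from the scatter of libraries around the fitted means of compound and condition, pooled over all compounds. Differences between compounds do not enter that error. A p-value against the other CKIs therefore does not measure how unusual a compound was among them. The labels do not say that libraries came from separate cultures, and p-values measure only the spread between these libraries. Each CKI was applied at the concentration that the study took as half-maximal for 1 intended kinase, which was MAP3K1 for GSK461364, the CK2 subunits CSNK2A1 and CSNK2A3 for NMS1286937 and CAMKK2 for Volasertib. The 3 doses therefore differ, and the readouts of the 3 compounds are given side by side with no test between them.

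PLK1 (polo-like kinase 1) is a serine/threonine kinase that drives entry into mitosis, spindle assembly and cytokinesis, and its inhibitors were developed to arrest dividing tumour cells. Volasertib is a dihydropteridinone that also binds the acetyl-lysine pocket of BET bromodomain proteins. BET proteins read acetylated histones and help release paused RNA polymerase, and macrophages rely on them to switch on inflammatory genes. H3K27ac marks active promoters and enhancers. It rises at genes of the NF-kB and interferon pathways after LPS and at STAT6 targets after IL-4. In bulk chromatin, less of the mark per cell and fewer cells that carry it cannot be told apart.

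Macrophage genes carried signal in all libraries. All 8 macrophage markers that were fixed for this check had a promoter CRE, and their summed signal was 4132 to 7977 normalized reads in the PLK1 inhibitor libraries and 5902 to 7929 in DMSO. Sums over markers of other cell types were lower, but those lists had fewer promoter CREs. The CREs were centred on accessible chromatin that the study mapped in BMDMs, so these sums cannot show how pure the cells were. The B cell list had a promoter CRE for 1 of 5 genes, with sums of 0 to 71 in the PLK1 inhibitor libraries. The fibroblast list had 2 of 5, with sums of 11 to 74 against 1 to 24 in DMSO, and the neutrophil list had 3 of 6, with sums of 85 to 270 against 64 to 192. The T cell list had 1 of 5 (63 to 495 against 79 to 412), and the dendritic cell list had 2 of 3 (93 to 332 against 121 to 438).

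Libraries differed strongly in contrast, defined here as the median of the strongest 10% of CREs over that of the weakest 10%. DMSO libraries had contrasts of 53.0 to 133.7 with a median of 75.1. Every PLK1 inhibitor library lay below both DMSO replicates of its condition, with 5.82 to 43.6 (median 11.04) for Volasertib, 6.60 to 55.3 (median 21.1) for NMS1286937 and 20.7 to 50.2 (median 38.4) for GSK461364. By median contrast from high to low, they ranked 52, 19 and 3 of the 58 CKIs. The satellite share ran the other way, defined here as the share of a CRE of satellite repeats on chromosome 9 in the normalized reads summed over all CREs. It was 0.617% to 5.65%, 0.410% to 5.69% and 0.333% to 1.24% against 0.0469% to 0.319% in DMSO. In the column order of the table, Volasertib and NMS1286937 stood in the same run of 10 compounds, and GSK461364 in another run of 10 whose other 9 compounds had a median contrast of 35.5. The labels name no batch. Because these properties move with the compounds, they are given beside the results below, and their part in them was not tested.

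**Figure D1:**
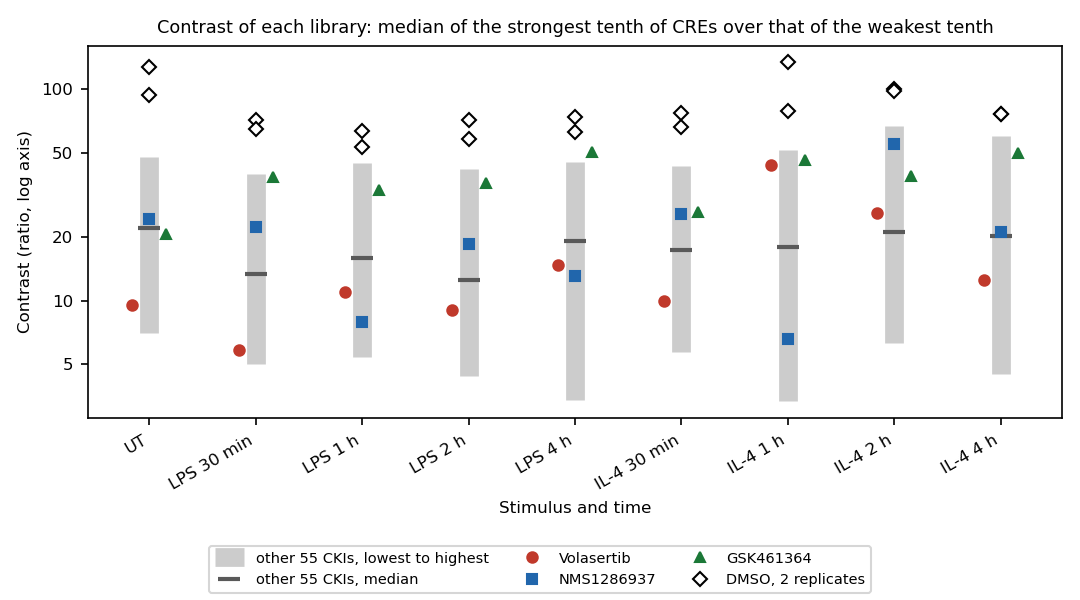
Contrast of each library (a ratio, on a log axis) by stimulus and time, for the 3 PLK1 inhibitors, the 2 DMSO replicates and the range and median of the other 55 CKIs. Every PLK1 inhibitor library lies below the lower DMSO replicate of its condition, and the lowest is Volasertib with LPS at 30 min, at 5.82.

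Against DMSO, Volasertib gave broad gains and fewer losses of H3K27ac. With LPS, 23813 CREs were higher (40.2% of those tested) and 3085 were lower (5.21%), at an adjusted p under 0.05 and a log2 difference over 0.5. With IL-4, 19690 were higher (33.3%) and 828 lower (1.4%). NMS1286937 gave 17682 higher (29.9%) and 1871 lower (3.16%) with LPS, and 18072 higher (30.5%) and 873 lower (1.48%) with IL-4. For GSK461364, 176 CREs were higher (0.297%) and 11 lower (0.0186%) with LPS, and 384 were higher (0.649%) and 34 lower (0.0575%) with IL-4. All comparisons with DMSO share the same control libraries. Single libraries weighed on the counts: without the 1 h library NMS1286937 had 1819 CREs with IL-4 in place of 18945 and 9924 with LPS in place of 19553, and Volasertib had 9785 with IL-4 without the 30 min library in place of 20518. GSK461364 had 33 to 96 with LPS and 75 to 256 with IL-4 when 1 of its libraries was left out, 491 and 2783 with pseudocount 1, and 1322 and 6379 with a fit per stimulus that included UT, and its LPS count against the other CKIs, given below, was 2387 to 3943 with 1 library left out.

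These counts have to be read against the other CKIs. The other 55 gave between 166 and 36208 called CREs with LPS (median 20005) and between 272 and 36060 with IL-4 (median 23084). Volasertib stood at rank 16 of 58 with LPS and 34 with IL-4, NMS1286937 at 31 and 35, and GSK461364 at 56 and 57. The gains lay at weak CREs. In the fifth of CREs with the lowest DMSO mean, the median log2 difference from DMSO with LPS was 1.64 for Volasertib, 1.33 for NMS1286937 and 0.50 for GSK461364. In the fifth with the highest DMSO mean it was -0.26, -0.16 and 0.05. Promoter CREs had a median of -0.07 for Volasertib with LPS, CREs over 50 kb from any protein-coding start had 0.71, and the 1000 widest CREs had -0.20. The direction depended on the scaling: after quantile normalization the LPS calls against DMSO were 1277 higher and 1389 lower for Volasertib, 349 and 515 for NMS1286937, and 8 and 8 for GSK461364. With library contrast as a covariate they were 1184 and 2318, 1385 and 2244, and 500 and 93. With IL-4, quantile normalization left 220 higher and 109 lower for Volasertib, 266 and 133 for NMS1286937, and 33 and 18 for GSK461364, and the covariate left 1456 and 1031, 1500 and 983, and 631 and 386.

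The CREs with the largest rise over DMSO were shared by the 3 compounds and both stimuli. Each is named by the nearest protein-coding gene, which need not be its target. The H60c CRE (chr10:3110992-3117821) was intergenic, 153344 bp from the start of H60c, which encodes a ligand of the NK cell receptor NKG2D. The Tcp10c CRE (chr17:13549984-13553884) was also intergenic, 197362 bp from the start of Tcp10c, a gene of the mouse t-complex. The Smo CRE (chr6:29747124-29749715) lay 12725 bp from the start of Smo, the Hedgehog signal transducer. At the Tcp10c CRE, DMSO libraries held 46 to 151 normalized reads. Volasertib held 16123, 5400, 10825 and 5810 at 30 min, 1 h, 2 h and 4 h of LPS, NMS1286937 held 3810, 12743, 3589 and 7619, and GSK461364 held 1155, 1359, 1540 and 1200. No PLK1 inhibitor library overlapped DMSO at this CRE. The log2 differences with LPS were 6.34 ± 0.49 (SE), 5.83 ± 0.49 and 3.62 ± 0.49. Beside them, the satellite share of the same libraries was 5.65%, 3.23%, 3.30% and 2.09% for Volasertib, 1.60%, 4.69%, 1.18% and 2.72% for NMS1286937 and 0.490%, 0.477%, 0.466% and 0.333% for GSK461364. The Tcp10c CRE was not called against the other CKIs in any of the 3 compounds. The other CKIs held a median of 2577 to 3898 normalized reads there after LPS. The H60c CRE was lower with GSK461364 and LPS than with the other CKIs (-1.44 ± 0.38, adjusted p = 0.00645). It was not called against them in Volasertib or NMS1286937, and the Smo CRE was called in none of the compounds.

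The CREs with the largest falls from DMSO were mostly distal or intronic, and each is named by the nearest gene. In Volasertib with LPS they were those of 4921524L21Rik (-3.15 ± 0.92), of Ctsc, the protease cathepsin C (-2.12 ± 0.65), and of Kansl1, a subunit of a histone acetyltransferase complex (-1.92 ± 0.42). In NMS1286937 they were those of Ctsc again (-2.71 ± 0.65), of the protocadherin gene Pcdh7 (-2.12 ± 0.52) and of Nsa2, a ribosome biogenesis gene (-2.05 ± 0.52). GSK461364 had its largest falls with LPS near Ccer1 (-2.03 ± 0.52), the globin gene Adgb (-1.26 ± 0.29) and Fcrls, an Fc receptor-like gene (-0.97 ± 0.25). With IL-4 they lay near Nsa2 (-1.75 ± 0.52), Ctsc (-1.62 ± 0.65) and Snx2 (-1.62 ± 0.37) in Volasertib, and near Tbce (-2.03 ± 0.82), Msr1, the macrophage scavenger receptor (-1.59 ± 0.44), and Tex13c3 (-1.53 ± 0.35) in NMS1286937. In GSK461364 they lay near Eps15, an endocytic adaptor (-1.62 ± 0.39), Matr3 (-1.53 ± 0.41) and the gasdermin gene Gsdmc (-1.49 ± 0.36). None of these CREs was called against the other CKIs. Of 11 alternatives run against DMSO, the calls held in 3 for Ccer1, 6 for Adgb, 4 for Fcrls, 5 for Eps15, 4 for Matr3, 5 for Gsdmc, 4 for Tbce and 3 for Ctsc in Volasertib with IL-4, and in 10 or 11 for the others.

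Set against the other 55 CKIs at the same stimulus and times, Volasertib and NMS1286937 had almost no CRE of their own. For Volasertib, 2 CREs were called with LPS (0.00338%), both lower, where quantile normalization gave 17 higher and 125 lower, and 0 with IL-4 (0%). NMS1286937 had 0 with LPS (0%) and 4 with IL-4 (0.00676%), all lower. In these limma tests, the unadjusted p was under 0.05 at 4499 CREs for Volasertib with LPS, 812 with IL-4, and 1535 and 1851 for NMS1286937. Among the other 55 CKIs, each against the rest, calls ran from 0 to 17066 with LPS (median 799) and from 0 to 16143 with IL-4 (median 236). GSK461364 differed from them most with LPS, where 1394 CREs were higher (2.36%) and 7256 lower (12.3%), which placed it at rank 5 of 58. With IL-4 it had 5 (0.00845%). Its LPS calls followed the level of the CRE, with a median of -0.77 in the fifth of lowest DMSO mean and 0.27 in the fifth of highest. Against the 9 other compounds of its own run, 1 CRE was called in place of 8650. That reference holds other compounds and fewer of them than the 55, and the part of each in the drop was not tested. Quantile normalization left 4 higher and 28 lower, and the contrast covariate left 62 higher and 9 lower.

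**Figure D2:**
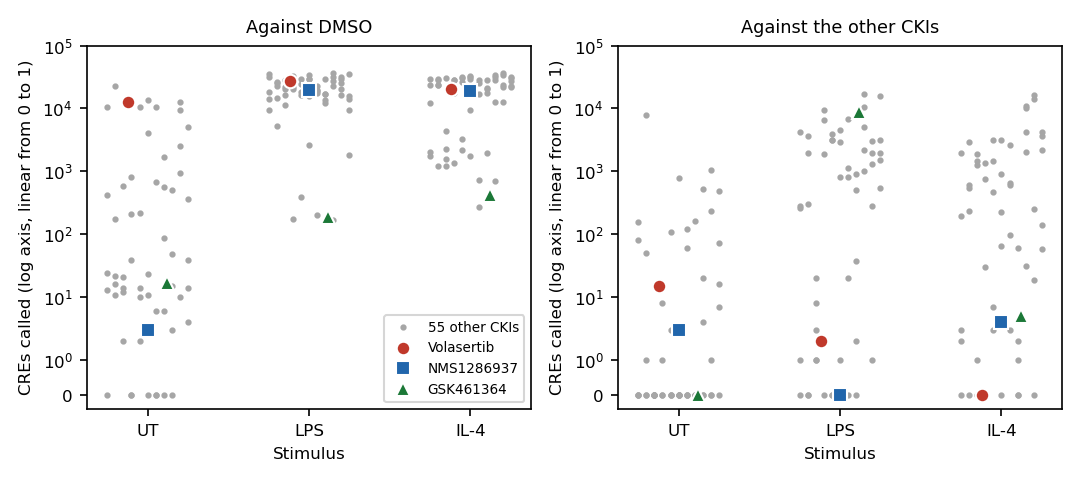
Number of CREs called for each of the 58 CKIs (a log axis that is linear from 0 to 1) against DMSO and against the other CKIs, in UT, LPS and IL-4. The PLK1 inhibitors lie inside the range of the other 55 compounds in each column, with GSK461364 near the bottom against DMSO (187 with LPS) and near the top against the other CKIs with LPS (8650).

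Both Volasertib calls with LPS were promoters. Their RefSeq windows of 250 bases before to 50 bases after the start (GRCm38.p6) are printed here with the Cenpf promoter described below, because these 3 promoters are the only ones called against the other CKIs for Volasertib or NMS1286937 after a stimulus. All 3 windows lie inside their CREs. Capitals mark the motif TTTGAA, the cell cycle homology region of many mitotic genes, and the motif CCAAT, the site of the factor NF-Y, both searched on both strands and not overlapping each other here. TTTGAA occurs in 17.9% and CCAAT in 37.4% of the 32851 promoter windows of the same length. The Cenpf window holds 1 TTTGAA and 2 CCAAT, the Taf6l window holds 0 and 2, and the Ech1 window holds neither.
Cenpf (chr1:189688037-189688336, minus strand): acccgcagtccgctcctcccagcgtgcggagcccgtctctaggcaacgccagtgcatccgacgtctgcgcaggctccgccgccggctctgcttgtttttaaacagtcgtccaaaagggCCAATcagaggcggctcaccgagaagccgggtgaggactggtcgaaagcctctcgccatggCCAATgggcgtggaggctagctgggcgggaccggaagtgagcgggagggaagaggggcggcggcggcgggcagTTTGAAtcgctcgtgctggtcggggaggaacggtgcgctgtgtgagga
Taf6l (chr19:8786267-8786566, minus strand): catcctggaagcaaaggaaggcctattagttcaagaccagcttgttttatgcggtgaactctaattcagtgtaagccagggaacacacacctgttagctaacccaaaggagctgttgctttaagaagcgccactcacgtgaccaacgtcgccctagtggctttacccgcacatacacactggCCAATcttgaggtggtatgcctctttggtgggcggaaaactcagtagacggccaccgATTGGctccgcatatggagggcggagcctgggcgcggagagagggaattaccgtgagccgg
Ech1 (chr7:28825088-28825387, plus strand): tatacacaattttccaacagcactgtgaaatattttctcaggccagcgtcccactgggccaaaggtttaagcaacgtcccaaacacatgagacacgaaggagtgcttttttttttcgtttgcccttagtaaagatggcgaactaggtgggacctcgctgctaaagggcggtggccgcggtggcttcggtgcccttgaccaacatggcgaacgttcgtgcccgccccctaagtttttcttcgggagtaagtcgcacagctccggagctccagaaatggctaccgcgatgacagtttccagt

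Taf6l encodes a subunit of the SAGA-type histone acetyltransferase complexes. Its promoter CRE (chr19:8785462-8787239) held 161 normalized reads in the UT library of Volasertib, then 7, 71, 124 and 95 at 30 min, 1 h, 2 h and 4 h of LPS. The DMSO replicates held 114 and 142 at 30 min, and the other CKIs held 32 to 178 there with a median of 129. NMS1286937 held 166 and GSK461364 175 at that time. The fall lay in the 30 min library, the only one outside the range of the other CKIs. The log2 difference from the other CKIs was -1.01 ± 0.18 (adjusted p = 0.00322), and without the 30 min library it was -0.21 (adjusted p = 1). Ech1 encodes an enoyl-CoA isomerase of fatty acid oxidation. Its promoter CRE (chr7:28824404-28826109) held 21, 85, 71 and 187 with Volasertib and LPS, where the DMSO replicates held 74 and 112, 144 and 153, 164 and 155, and 208 and 178. The difference was -0.79 ± 0.16 (adjusted p = 0.0329), and -0.41 without the 30 min library (adjusted p = 1). Against the 8 other compounds of the same run both were still called, at -1.06 (adjusted p = 0.00395) and -0.88 (adjusted p = 0.00959). The 30 min library had the lowest contrast of the 27, at 5.82. Both genes were chosen after their values were seen, because they were the only calls.

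The 4 CREs that were lower in NMS1286937 than in the other CKIs with IL-4 included 1 gene of mitosis. Cenpf encodes centromere protein F, a kinetochore component made as cells prepare to divide. Its promoter CRE (chr1:189687308-189689142) held 109 normalized reads in the UT library and 106, 42, 45 and 10 at 30 min, 1 h, 2 h and 4 h of IL-4. The DMSO replicates held 87 and 127, 93 and 79, 89 and 99, and 76 and 67, and the medians of the other CKIs were 112, 113, 102 and 87. Signal with NMS1286937 lay inside the DMSO pair at 30 min and below both replicates at the 3 later times. Volasertib held 125, 108, 107 and 22 and GSK461364 held 93, 132, 149 and 82 in the same conditions. The log2 difference of NMS1286937 from the other CKIs was -1.26 ± 0.26 (adjusted p = 0.0332) and that from DMSO was -1.07 ± 0.31 (adjusted p = 0.00563). After LPS the CRE held 51, 73, 41 and 47 in NMS1286937, against 17 to 72 in DMSO. Leaving out the 4 h library moved the difference from the other CKIs to -0.83, and leaving out the 1 h library, whose contrast was 6.60, left it at -1.26. The call was lost without the 1 h, the 2 h or the 4 h library, under quantile normalization (-1.34, adjusted p = 0.0678) and against the same run (-1.25, adjusted p = 0.113), and it held with the contrast covariate (-1.25, adjusted p = 0.0204).

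The other 3 calls were away from promoters. They were intronic CREs nearest to Npepps, which encodes a cytosolic aminopeptidase (-1.57 ± 0.33), and to Ranbp10, a Ran-binding protein of microtubules (-1.41 ± 0.29), and a CRE 9951 bp from Sparc, a secreted matrix glycoprotein (-1.19 ± 0.23). All held 0 normalized reads in the 1 h library, where the lowest of the other CKIs held 6, 11 and 35. Without that library they stood at -1.27, -0.87 and -0.26, and neither they nor Cenpf were called.

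In GSK461364 with IL-4, 3 of the 4 higher CREs were promoters of interferon-stimulated genes. Rtp4, an interferon-induced transporter protein, held 904, 826, 718 and 554 normalized reads at its promoter CRE (chr16:23609093-23612324) at 30 min, 1 h, 2 h and 4 h. The DMSO replicates held 655 and 609, 695 and 729, 723 and 738, and 519 and 460, and the medians of the other CKIs were 412, 425, 412 and 329. GSK461364 was above every other CKI at 30 min and 1 h, above both DMSO replicates at 30 min, 1 h and 4 h, and below both at 2 h. Volasertib held 384, 475, 402 and 304 and NMS1286937 held 440, 270, 419 and 259, all below both DMSO replicates. The log2 difference of GSK461364 from the other CKIs was 0.86 ± 0.13 (adjusted p = 5.6e-06) and that from DMSO was 0.22. At the promoter CRE of Oasl2, an oligoadenylate synthetase-like gene, GSK461364 held 487, 480, 385 and 287, above both DMSO replicates at each time (251 to 390), and differed by 0.79 ± 0.16 from the other CKIs (adjusted p = 0.0164). At that of Ube2l6, the conjugating enzyme for ISG15, it held 532, 514, 418 and 366 against 202 to 310 in DMSO, and differed by 0.62 ± 0.13 from the other CKIs (adjusted p = 0.0410) and by 0.79 from DMSO. The promoter CRE of Zeb2, a transcription factor of macrophage identity, was higher by 0.55 ± 0.10 (adjusted p = 0.00141), and a CRE near Abr, a GTPase regulator, stood at -1.45 ± 0.30 (adjusted p = 0.0320). Against the 9 compounds of its own run the 4 rises were 0.23, 0.16, 0.14 and 0.17 and none was called. Under quantile normalization Rtp4, Oasl2 and Zeb2 were still called, and with the contrast covariate only Rtp4 was (0.72). Without the 1 h library only Rtp4 was called, at 0.85.

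With LPS, the largest changes of GSK461364 against the other CKIs were mostly at distal or intronic CREs. The largest rises lay nearest to the predicted genes Gm21188 (3.10 ± 0.59), Gm21887 (2.94 ± 1.12) and Gm11146 (1.16 ± 0.31), to Cysltr1, the leukotriene receptor (1.11 ± 0.34), and 349509 bp from Klf6, a zinc-finger transcription factor (1.07 ± 0.32). Against DMSO the Klf6 and Gm11146 CREs stood at -0.54 and -0.26, and none of the 5 was called. The largest falls lay near Snurf, Gm10717, Gm10553 and C130026I21Rik, at -2.17, -2.07, -2.05 and -1.88. Against DMSO these 4 stood at 1.16, 1.14, 0.76 and 1.25 and were not called, and with the contrast covariate C130026I21Rik turned to 0.07 against the other CKIs. Of 10 alternatives run, the calls held in 9 for Gm21188, 1 for Gm21887, 7 for Gm11146, 2 for Cysltr1 and 4 for Klf6. They held in 1 for Snurf, 8 for Gm10717, 8 for Gm10553 and 6 for C130026I21Rik. The Snurf CRE had a DMSO mean of 4.28 normalized reads. At an intronic CRE nearest to Nos1ap (chr1:170480444-170482034), an adaptor of neuronal nitric oxide synthase, GSK461364 held 29 normalized reads in UT and 7, 7, 1 and 1 at 30 min, 1 h, 2 h and 4 h of LPS. The DMSO replicates held 13 and 15, 19 and 14, 10 and 14, and 3 and 12, so that GSK461364 lay below both at each time. The difference from the other CKIs was -2.02 ± 0.30 (adjusted p = 2.55e-06), and -1.83 against its own run, where this was the only CRE called. It was called under all 10 alternatives run. Against DMSO it stood at -0.99 and was not called. With IL-4 the same CRE held 47, 61, 75 and 33, against 35 to 74 in DMSO.

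**Figure D3:**
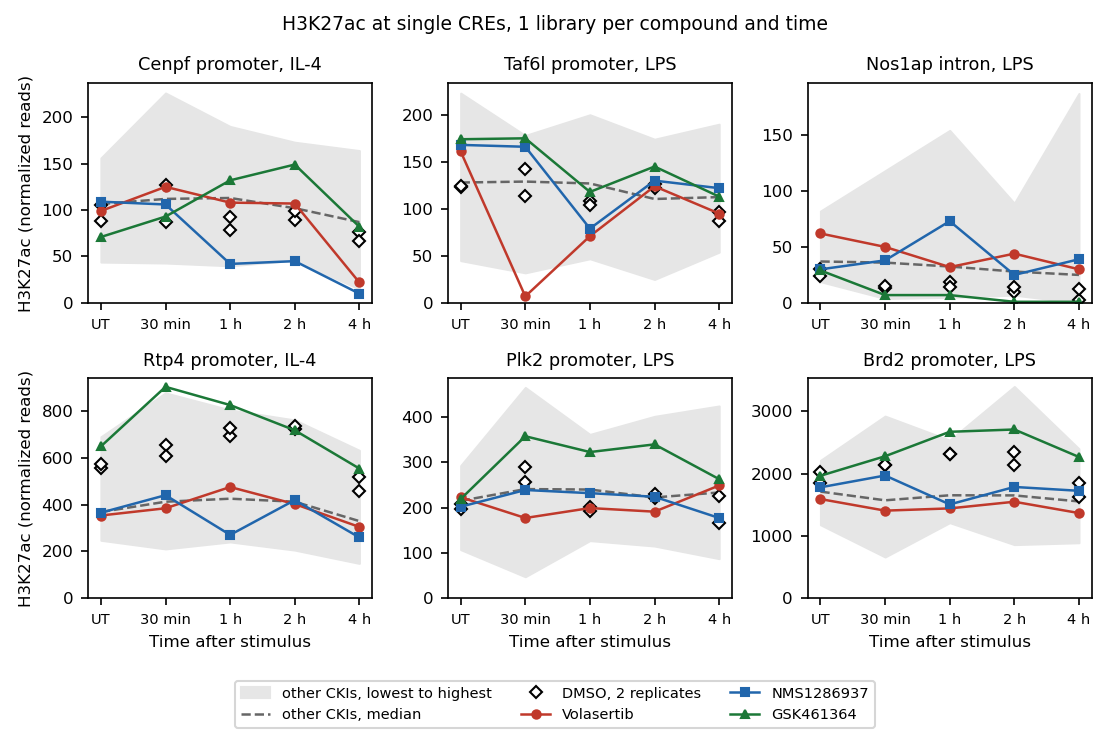
H3K27ac signal (normalized reads, axis from 0) at 6 CREs in UT and after LPS or IL-4, with 1 library per compound and time, 2 DMSO replicates, and the range and median of the other CKIs. Volasertib drops to 7 at the Taf6l promoter at 30 min of LPS, NMS1286937 to 10 at the Cenpf promoter at 4 h of IL-4, and GSK461364 to 1 at the Nos1ap CRE at 2 h and 4 h of LPS.

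The genes of the polo-like kinases and of the kinases assigned to the 3 compounds changed little. Of 10 genes, 8 had a promoter CRE, and Plk5 and Csnk2a2 had none. The list, like the lists below, was chosen with earlier results of these data known and supports no direction by itself. Plk1, the designated target, held 64, 100, 133 and 134 normalized reads with Volasertib at 30 min, 1 h, 2 h and 4 h of LPS, 137, 147, 189 and 94 with NMS1286937, and 149, 182, 188 and 130 with GSK461364. The DMSO replicates held 137 and 157, 132 and 124, 138 and 104, and 83 and 100. GSK461364 lay above both replicates at 1 h, 2 h and 4 h, and Volasertib below both at 30 min and 1 h. None of these differences was called, with -0.20 ± 0.21, 0.19 ± 0.21 and 0.41 ± 0.21 from DMSO (adjusted p 0.431, 0.480 and 0.390). With IL-4 the differences of Plk1 were 0.13, 0.16 and 0.48, each ± 0.21.

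Plk2, a stress-induced family member, was the only gene of the list called against the other CKIs. With GSK461364 and LPS it held 358, 323, 340 and 263 normalized reads, above both DMSO replicates at each time (256 and 291, 201 and 192, 221 and 231, 167 and 226). It was higher than in the other CKIs by 0.50 ± 0.15 on the log2 scale (adjusted p = 0.0143), where all CREs had a median of -0.26, and 0.26 against its own run, where it was not called. Without the 30 min or the 2 h library the difference was 0.46 and the call was lost. It was also lost under quantile normalization and with the contrast covariate, and it held in 4 of 10 alternatives. Volasertib held 177, 199, 191 and 249 and NMS1286937 held 239, 232, 224 and 177. Camkk2, the kinase assigned to Volasertib, was lower than DMSO with Volasertib and LPS (-0.55 ± 0.20, adjusted p = 0.0154), with 149, 249, 200 and 134 normalized reads against 267 and 235, 347 and 439, 288 and 347, and 159 and 151. All 4 libraries lay below both replicates. That difference was -0.32 under quantile normalization, -3e-04 with the contrast covariate and -0.21 ± 0.16 from the other CKIs, and was called in none of these. It was also lost without the 30 min library (-0.52) and without DMSO replicate 2 (-0.51). Map3k1, assigned to GSK461364, Csnk2a1, assigned to NMS1286937, and Csnk2b, the regulatory subunit of the same CK2 holoenzyme, were not called in those compounds, with 0.19 ± 0.30 for Map3k1 and -0.14 ± 0.16 and -0.08 ± 0.14 for the CK2 genes from DMSO after LPS. Plk3 and Plk4, which control stress responses and centriole duplication, were not called in any compound.

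Genes of mitosis were mostly not called. All 24 had a promoter CRE. Against DMSO with LPS, Volasertib had 4 higher and 1 lower, NMS1286937 had 1 and 2, and GSK461364 had 0. Over all CREs, 40.2% were higher and 5.21% lower in Volasertib, and 29.9% and 3.16% in NMS1286937. Quantile normalization left 2 higher in Volasertib and 0 in NMS1286937, with none lower, and the contrast covariate left 1 and 0 higher. The higher ones with Volasertib were Mybl2, a transcription factor of the cell cycle (0.99 ± 0.26), Kif23, a kinesin of cytokinesis (0.84 ± 0.19), Ccnb2 (0.66) and Bub1 (0.58), and the lower one was Bora, the activator of Aurora A toward PLK1 (-0.53 ± 0.19). The medians were 0.16, 0.19 and 0.34, beside 0.51, 0.41 and 0.17 over all CREs. With NMS1286937, Mki67, the proliferation antigen, and Aurkb, the kinase Aurora B, were lower (-0.62 ± 0.16 and -0.59 ± 0.20) and the checkpoint kinase gene Bub1b was higher (0.58 ± 0.22). With IL-4, Mybl2 was higher than DMSO in each of the 3 compounds (0.95 ± 0.26, 1.07 ± 0.26 and 0.94 ± 0.26), and DMSO held only 26 to 49 normalized reads there. In the same comparisons 33.3%, 30.5% and 0.649% of all CREs were higher. Quantile normalization left no mitosis gene higher with IL-4 in any of the 3 compounds. The contrast covariate left 1 higher in Volasertib, 2 higher and 1 lower in NMS1286937, and 2 higher in GSK461364. In GSK461364 with IL-4, 23 of the 24 values lay above 0, with a median of 0.33 beside 0.21 over all CREs. Quantile normalization left 23 above 0 and the covariate 24. The Mybl2 call in GSK461364 held in 3 of 11 alternatives. Against the other CKIs, Cenpf in NMS1286937 was the only mitosis gene called in any of the 3 compounds, and the median of the other CKIs at Mybl2 was 72.5 to 98 with IL-4.

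All 14 bromodomain and elongation genes, a list examined because Volasertib binds bromodomains, had a promoter CRE. Brd2, which encodes a BET protein, was lower than DMSO with Volasertib and LPS, with 1404, 1440, 1547 and 1365 normalized reads at 30 min, 1 h, 2 h and 4 h against 1631 to 2348 in DMSO. All 4 libraries lay below both DMSO replicates (-0.54 ± 0.13, adjusted p = 0.000296). The other CKIs held medians of 1552 to 1651 there, and Brd2 differed from them by less than the call threshold. The difference from DMSO was -0.08 after quantile normalization and 0.11 with the contrast covariate, so that its direction depended on the scaling. With GSK461364 and LPS the same CRE held 2279, 2672, 2709 and 2267, higher than the other CKIs by 0.60 ± 0.11 (adjusted p = 6.35e-05), and 0.34 against its own run, where it was not called. That call was also lost under quantile normalization and with the contrast covariate. Fosl1, an AP-1 subunit, was higher than DMSO with IL-4 in Volasertib (1.08 ± 0.27) and NMS1286937 (0.66 ± 0.27), with 51 to 102 and 44 to 83 normalized reads against 15 to 47. In these comparisons 33.3% and 30.5% of all CREs were higher. Quantile normalization left no gene of the list called with IL-4 in either compound, and the contrast covariate left 1 higher in each. Hexim1, an inhibitor of the elongation factor P-TEFb, and Myc were not called in any compound. Hexim1 held 418, 363, 400 and 446 with Volasertib and LPS against 481 to 642 in DMSO, and Myc held 553, 867, 325 and 410 against 642 and 610, 826 and 804, 292 and 267, and 295 and 337. The median of the 14 genes with Volasertib and LPS was -0.28 from DMSO, where all CREs had 0.51 and promoter CREs -0.07. It was 0.04 after quantile normalization and 0.13 with the contrast covariate, so that its sign depended on the scaling. From the other CKIs it was -0.07, where all CREs had 0.11. No gene of this list was called against the other CKIs in Volasertib or NMS1286937.

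Interferon-stimulated genes were lower than DMSO after LPS in Volasertib and NMS1286937. Of 18 with a promoter CRE, 11 were lower and 0 higher in Volasertib, 7 were lower and 0 higher in NMS1286937, and 1 was higher in GSK461364. Over all CREs, 5.21% and 3.16% were lower in Volasertib and NMS1286937, and 0.297% were higher in GSK461364. The medians were -0.57, -0.49 and 0.02, beside 0.51, 0.41 and 0.17 over all CREs. Gbp2, an interferon-induced GTPase, fell by 0.97 ± 0.20 and 0.83 ± 0.20 on the log2 scale, Usp18, the protease that removes ISG15, by 0.85 ± 0.21 and 0.82 ± 0.21, and Isg15 by 0.83 ± 0.20 and 0.65 ± 0.20. Usp18 held 170, 210, 578 and 692 normalized reads with Volasertib and 115, 214, 927 and 675 with NMS1286937, where DMSO held 190 and 204, 556 and 436, 1223 and 1217, and 1341 and 1309. Every library of both compounds lay below both DMSO replicates of its time. Under quantile normalization no gene of the list was called in either compound with LPS, and with the contrast covariate 4 were lower in each. None was called against the other CKIs, and the medians were -0.01 and -0.04.

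With GSK461364, several of the same genes were higher than with the other CKIs. With LPS, 7 of 18 were higher and 0 lower (2.36% of all CREs were higher), with a median of 0.48 beside -0.26 over all CREs. They were Ifit3 (0.80 ± 0.25), Usp18 (0.74 ± 0.17), Cmpk2 (0.73 ± 0.18), Irf7 (0.68 ± 0.16), Mx1 (0.66 ± 0.18), Ddx58 (0.59 ± 0.15) and Isg15 (0.54 ± 0.16), which encode antiviral effectors and sensors and, in Irf7, the transcription factor that sustains interferon production. Cmpk2, a mitochondrial nucleotide kinase, was also higher than DMSO (0.87 ± 0.22, adjusted p = 0.0347), with 130, 521, 730 and 587 normalized reads against 79 and 66, 271 and 259, 378 and 395, and 355 and 314, above both replicates at each time. That call held in 4 of 11 alternatives. With IL-4, 16 of the 18 had values above 0 against the other CKIs and the median was 0.40 beside -0.27, but none was called. The LPS median was 0.20 under quantile normalization with 0 genes called, 0.42 with the contrast covariate with 1 called, and 0.28 against its own run with 0 called. All 18 values stayed above 0 with the covariate and against the run, and 15 did under quantile normalization. Beside this, the LPS libraries of GSK461364 had contrasts of 33.3 to 50.2, where the other CKIs had medians of 12.6 to 19.0.

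Immediate early and NF-kB feedback genes moved in both directions. Of 19 with a promoter CRE, 6 were lower than DMSO with LPS in Volasertib and 4 in NMS1286937, with none higher, where 5.21% and 3.16% of all CREs were lower. Quantile normalization left 2 and 1 lower, and the contrast covariate left 0 lower in Volasertib and 1 lower and 1 higher in NMS1286937. They included Rel and Nfkb1, subunits of NF-kB (-0.70 ± 0.12 and -0.71 ± 0.14 in Volasertib, -0.63 ± 0.12 and -0.59 ± 0.14 in NMS1286937), Tnfaip3, the deubiquitinase A20 (-0.75 ± 0.16 and -0.65 ± 0.16), and Nfkbiz, a nuclear IkB protein (-0.76 ± 0.18 and -0.91 ± 0.18). Tnfaip3 held 567, 572, 525 and 656 with Volasertib and 876, 416, 656 and 604 with NMS1286937, against 841 to 1062 in DMSO. Only the 30 min library of NMS1286937 reached that range, and it lay below both replicates of its time. With GSK461364, 0 were called against DMSO and 6 were higher than the other CKIs, namely Tnfaip3 (0.68 ± 0.13), Zfp36, an mRNA decay factor (0.60 ± 0.10), Junb (0.59 ± 0.11), Ier2 (0.55 ± 0.10), Nfkb2 (0.54 ± 0.11) and Atf3 (0.53 ± 0.13). These 6 were read with LPS, where 2.36% of all CREs were higher and 12.3% lower. Quantile normalization left 2 of the 6, and the run reference and the covariate left none. With IL-4, 3 genes were higher than DMSO in NMS1286937, Egr3, Dusp2 and Nr4a1 (0.95, 0.69 and 0.57), where 30.5% of all CREs were higher. Quantile normalization gave 0 higher and 1 lower there, and the contrast covariate gave 4 higher. In the main fit none was called with IL-4 in the other 2 compounds.

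Cytokine and chemokine genes were called against DMSO in both directions with each stimulus in Volasertib and NMS1286937. Whether these effects differed between the stimuli is not given here. Of 20 genes, 15 had a promoter CRE, while Tnf, Il1b, Il12a, Ccl5 and Acod1 had none within 2 kb of their start. With LPS, 4 chemokines were lower than DMSO in Volasertib, the CC chemokines Ccl3, Ccl4, Ccl7 and Ccl12 (-0.69, -0.76, -0.68 and -0.65), and Csf3 and Nos2 were higher (0.94 and 0.93), where 5.21% of all CREs were lower and 40.2% higher. NMS1286937 had Ccl4, Ccl7, Ccl12 and Il6 lower (-0.56, -0.56, -0.64 and -0.62) and Csf3 higher (0.83), where 3.16% were lower and 29.9% higher. Quantile normalization left 0 of these LPS calls in either compound, and the contrast covariate left 2 lower in each. With IL-4, which does not induce most of these genes, 6 were higher and 1 lower in Volasertib and 8 and 2 in NMS1286937. Over all CREs, 33.3% and 30.5% were higher and 1.4% and 1.48% lower. Quantile normalization left 0 and 1 called. Il12b, a subunit of IL-12, rose by 1.74 ± 0.33 and 1.59 ± 0.33, Nos2, inducible nitric oxide synthase, by 1.48 ± 0.37 and 1.29 ± 0.37, and Cxcl2 by 1.23 ± 0.27 and 1.41 ± 0.27. With GSK461364, none of the 15 was called against DMSO, and Il10, Ccl12 and Ccl3 were higher than the other CKIs with LPS (0.65 ± 0.15, 0.62 ± 0.14 and 0.61 ± 0.13), where 2.36% of all CREs were higher. None of the 3 was called against its own run, after quantile normalization or with the contrast covariate. No gene of this list was called against the other CKIs in Volasertib or NMS1286937.

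Of the 17 IL-4 response genes with a promoter CRE, 2 were higher and 2 lower than DMSO with IL-4 in Volasertib, and as many in NMS1286937, where 33.3% and 30.5% of all CREs were higher and 1.4% and 1.48% lower. With LPS the counts were 4 and 2, and 1 and 1, where 40.2% and 29.9% of all CREs were higher and 5.21% and 3.16% lower. With that stimulus quantile normalization gave 1 higher and 1 lower in Volasertib, and 0 and 1 in NMS1286937. The contrast covariate gave 2 and 1, and 1 and 1. Quantile normalization left 0 called with IL-4 in both compounds, and the contrast covariate left 2 and 1 lower. Arg1, the enzyme arginase 1, and Tfec, a transcription factor of the MiT family, were lower than DMSO with IL-4 in Volasertib (-0.69 ± 0.24 and -0.91 ± 0.26) and NMS1286937 (-0.63 ± 0.24 and -0.78 ± 0.26). The chemokine genes Ccl17 and Ccl22 were higher in both (0.97 and 1.32, 1.39 and 1.47). Tfec was also lower with LPS (-1.68 ± 0.26 and -1.37 ± 0.26). It held 78, 156, 44 and 69 normalized reads with Volasertib and 159, 31, 162 and 110 with NMS1286937, against 178 to 369 in DMSO, so that no library of either compound reached the DMSO range. The medians of the other CKIs were 95.5 to 146, and neither compound was called against them. GSK461364 had no gene of the list called against DMSO. Compared with the other CKIs after LPS it had Mgl2, a lectin of IL-4-treated macrophages, and Arg1 lower (-0.83 ± 0.20 and -0.54 ± 0.19) and Socs1, the cytokine feedback inhibitor, higher (0.56 ± 0.14), where 12.3% of all CREs were lower and 2.36% higher. The 3 calls were lost against its own run, after quantile normalization and with the contrast covariate.

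Calls at macrophage identity genes depended on the scaling. With LPS, 0 of 15 were higher and 2 lower than DMSO in Volasertib, and 2 were higher and 3 lower in NMS1286937. Over all CREs, 40.2% were higher and 5.21% lower in Volasertib, and 29.9% and 3.16% in NMS1286937. Quantile normalization left 0 identity genes lower in both and 1 higher in Volasertib, and the contrast covariate left 0 lower and 1 and 3 higher. Of 15 with a promoter CRE, Tlr4, the LPS receptor, was lower than DMSO with LPS in Volasertib and NMS1286937 (-0.52 ± 0.15 in each) and with IL-4 in NMS1286937 (-0.64 ± 0.15). Fcgr1, a high-affinity Fc receptor, was lower in Volasertib with LPS (-0.74 ± 0.20). With LPS, NMS1286937 had the co-receptor Cd14 and the F4/80 gene Adgre1 lower (-0.59 and -0.57) and Cebpa and Mertk higher (0.58 and 0.63). With GSK461364, no identity gene was called against DMSO. Cd68 and Tlr4 were higher than the other CKIs with LPS (0.54 ± 0.14 and 0.50 ± 0.12), where 2.36% of all CREs were higher. Both calls were lost against its own run, after quantile normalization and with the contrast covariate.

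**Figure D4:**
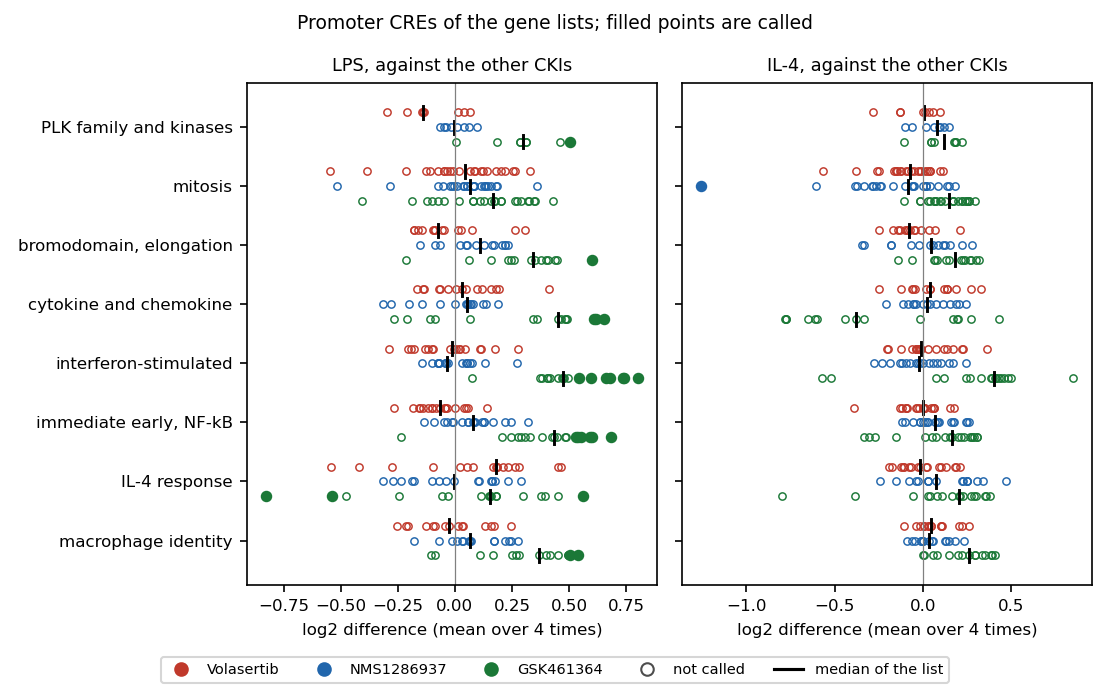
Log2 difference of each promoter CRE in the 8 gene lists from the other CKIs, with LPS and with IL-4, for the 3 PLK1 inhibitors. Each point is 1 gene, filled points are called and bars are medians. Filled points are seen with GSK461364 and LPS, such as 7 of 18 interferon-stimulated genes, and for Cenpf in NMS1286937 with IL-4.

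The response to the stimulus was also read within each compound, as the difference of each stimulated library from the UT library of the same compound. CREs were classed from the DMSO time courses alone, so the DMSO values are a description of how the classes were chosen. Volasertib was near the low end of all compounds. At the 8735 CREs that LPS induced late in DMSO, the median log2 rise at 30 min, 1 h, 2 h and 4 h was 0.30, 0.19, 0.55 and 0.72 with Volasertib, 0.43, 0.95, 1.47 and 1.28 with NMS1286937 and 0.19, 0.77, 1.39 and 1.22 with GSK461364. The medians of the other CKIs were 0.53, 0.74, 1.16 and 1.24, and the DMSO replicates reached 1.90 and 1.88 at 4 h. Volasertib ranked 45, 56, 53 and 53 among the 55 to 58 compounds that had both libraries. At the 5945 CREs induced early, it rose by 0.62 and 0.47 at 30 min and 1 h and by 0 at 2 h and 4 h, with ranks of 51 to 53. At the CREs that IL-4 induced early (3416) and late (2999), its ranks were 50 to 55 and 53 to 58. NMS1286937 and GSK461364 had ranks of 3 to 36 and 14 to 50 over the 4 induced classes.

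The UT library of Volasertib was itself high at these CREs. At the CREs induced late by LPS its median difference from the UT libraries of DMSO was 1.30, with 3057 called higher (35.0%), and from those of the other CKIs it was 0.59. Over all CREs these medians were 0.78, with 21.3% higher, and 0.36. The class was chosen partly for low signal in the same DMSO UT libraries, so that the difference from DMSO is a description. Its contrast was 9.54, where the UT libraries of the other CKIs had 7.02 to 47.8 (median 22.1) and those of DMSO 94.0 and 127. With the stimulated libraries compared directly, the same CREs had a median of 0.13 from DMSO and 0.08 from the other CKIs after LPS. CREs that lost H3K27ac after LPS in DMSO (12447) fell in the 3 compounds by 0.67 to 1.22 on the log2 scale over the 4 times, where the other CKIs had medians of -0.71, -0.84, -1.01 and -0.88. There GSK461364 had falls of 0.85, 0.95, 1.22 and 1.10, at ranks of 51, 45, 52 and 54.

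**Figure D5:**
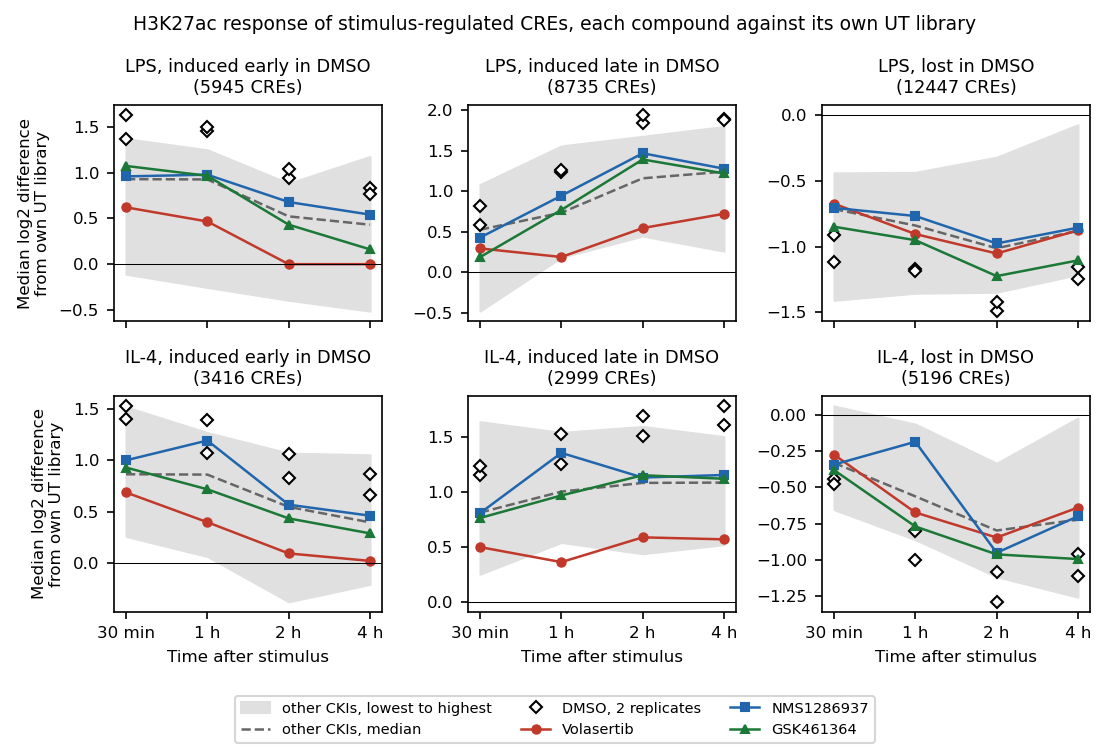
Median log2 difference of H3K27ac from the UT library of the same compound, for 6 classes of CREs defined in DMSO, over time after LPS or IL-4. Lines are the 3 PLK1 inhibitors (1 library per point), diamonds the 2 DMSO replicates, and the shaded band and dashed line the range and median of the other CKIs. Volasertib runs near the bottom of the band in the 4 induced classes, as with LPS induced late at 4 h, where it reached 0.72 against a median of 1.24.

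In unstimulated cells, each comparison rests on 1 library of the compound. Volasertib had 12843 CREs called against DMSO (21.7%, rank 4 of 58), of which 12600 were higher. Quantile normalization left 105 higher and 161 lower, and the contrast covariate 318 and 147. NMS1286937 had 3 (0.00507%) and GSK461364 had 17 (0.0287%), and the other 55 CKIs had 0 to 22542 (median 23). Those of GSK461364 included CREs near Lad1 (2.83 ± 0.57) and Heatr9 (2.80 ± 0.64), which held 69 and 83 normalized reads against 4 to 7 and 5 to 11 in DMSO and medians of 49 and 79 in the other CKIs. With the other CKIs as the reference, Volasertib had 15 (0.0254%), of which 2 were higher and 13 lower, where quantile normalization gave 374 and the contrast covariate 97, NMS1286937 had 3 (0.00507%) and GSK461364 had 0 (0%, with 795 CREs at an unadjusted p under 0.05 in limma). The lowest in Volasertib was a distal CRE 125217 bp from Adgb, with 0 normalized reads where DMSO held 62 and 74 and the other CKIs 27 to 166. In NMS1286937, the promoter CREs of Tpd52, a vesicle trafficking gene, and Shisa5 and an intronic CRE nearest to Rubcn, an autophagy regulator, stood at -1.34 ± 0.28, -2.08 ± 0.43 and -2.98 ± 0.60. Tpd52 held 44 there, against 86 and 67 in DMSO and 68 to 243 in the other CKIs. The genes of this paragraph were chosen after their values were seen.

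Whether an effect differed between LPS and IL-4 was tested directly. Against DMSO, 909 CREs differed for Volasertib (1.54%), 597 for NMS1286937 (1.01%) and 0 for GSK461364 (0%, with 978 at an unadjusted p under 0.05 in limma). Against the other CKIs, 0 differed for Volasertib (0%) and NMS1286937 (0%), with 1798 and 1276 at an unadjusted p under 0.05, and 3 for GSK461364 (0.00507%). These 3 were distal. The CRE 29417 bp from Slc44a1 held 1062, 926, 1067 and 777 normalized reads after LPS with GSK461364, where the other CKIs had medians of 627, 695, 590 and 481, and 108, 58, 49 and 38 after IL-4, where they had 134, 93.5, 68 and 73.5. It was above the medians after LPS and below them after IL-4 at each time, with a difference of 1.32 ± 0.27 between the effects (adjusted p = 0.0331). DMSO held 542 to 922 after LPS and 40 to 151 after IL-4. The CREs near Fbxo11 and Slc22a12 differed by 1.10 ± 0.23 and -1.08 ± 0.21.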

How the data were processed

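H3K27ac ChIP-seq was measured in 564 libraries of BMDMs. The values are a score per CRE as deposited: normalized read counts that the authors scaled from invariant peaks and rounded to whole numbers, after trimming reads to 51 bp, mapping them to mm10 and counting around ATAC summits. They are not raw counts, so no count model was used, and the study removed failed samples before deposit. Depth was estimated from the value of 1 read in each library, at 872000 to 5714000 reads in 26 of the 27 PLK1 inhibitor libraries and 2345000 to 5406000 in 16 of the 18 DMSO libraries, which covers counting error only.

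limma 3.58.1 (R 4.3.3, tables read with data.table, release 1.17.8) was fitted to CREs with a mean of at least 10, two-sided with a mean trend, on log2(value + 5), so that fold changes of weak CREs are understated. 1 fit over all libraries had 183 coefficients for compound, stimulus and time and 381 residual degrees of freedom. Effects were means over 4 times (UT: 1 library), p-values were adjusted by Benjamini-Hochberg over all CREs, and CREs were called where the log2 difference passed 0.5 in size and the adjusted p fell below 0.05. Values after ± are standard errors. Classes of LPS and IL-4 response came from a limma F-test of the DMSO time course (adjusted p under 0.01, log2 change over 1). A gene was read at the CRE nearest to its start within 2000 bp, and other CREs carry the name of the nearest protein-coding gene, which need not be their target.

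Named were, for each compound and stimulus, up to 5 called CREs per direction against the other CKIs and 3 against DMSO whose 4 libraries lay on the same side of the reference, plus list genes. Members and lists were chosen with earlier results of these data known. Replicate numbers of DMSO did not pair libraries: 36 correlations of deviations ran from -0.0873 to 0.0664. Alternatives were another fold threshold, pseudocount 1, no filter, quantile normalization, a fit per stimulus with UT included, leaving out libraries, CKIs of the same run as reference and, chosen after seeing the data, contrast as a covariate. The scripts were tested on simulated data.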

Additional observations from a re-analysis of the deposited data

Results flagged for a closer look

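The effects of the compounds differed between LPS and IL-4, by a limma test of the difference itself, at 909 CREs for Volasertib and at 597 for NMS1286937 against DMSO. For Volasertib, 353 of these had the larger value with LPS and 556 with IL-4, and for NMS1286937 these numbers were 144 and 453. Quantile normalization left 11 and 9. For GSK461364, 3 CREs differed between the stimuli against the other CKIs, near Slc44a1, Fbxo11 and Slc22a12.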

How the results depend on the processing

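Counts of calls depended on scaling more than on the filter on low values. Quantile normalization changed the counts against DMSO to 2666 (LPS), 329 (IL-4), 266 (UT) and 11 (LPS minus IL-4) for Volasertib, to 864, 399, 14 and 9 for NMS1286937, and to 16 and 51 for GSK461364 with LPS and IL-4. Against the other CKIs it gave 142 (LPS), 374 (UT) and 1 (LPS minus IL-4) for Volasertib, 0 (IL-4) and 1 (UT) for NMS1286937, and 32 (LPS), 3 (UT) and 0 (LPS minus IL-4) for GSK461364. With contrast as a covariate the counts against DMSO were 3502, 2487, 465 and 1528 for Volasertib, 3629 (LPS), 2483 (IL-4) and 1165 (LPS minus IL-4) for NMS1286937, and 593, 1017 and 41 (UT) for GSK461364, and against the other CKIs 4 (LPS), 1 (IL-4) and 97 (UT), 3, 9 and 5, and 71, 1 and 1, with 5 for LPS minus IL-4 in GSK461364. Brd2 in Volasertib with LPS turned from -0.5416 to 0.1125 against DMSO and C130026I21Rik in GSK461364 with LPS to 0.0685 against the other CKIs. The cause was not tested.

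Pseudocount 1 gave 491 (LPS), 2783 (IL-4) and 140 (UT) for GSK461364 and 32 (UT) for NMS1286937 against DMSO. Against the other CKIs it gave 102 (IL-4), 5 (UT) and 7 (LPS minus IL-4) for GSK461364, 6 (LPS), 29 (IL-4), 27 (UT) and 1 (LPS minus IL-4) for NMS1286937, and 61 (UT) for Volasertib. A log2 threshold of 1 left 98 for GSK461364 against DMSO with LPS, and 3314 with LPS and 1 with IL-4 against the other CKIs, and 1 for Volasertib with LPS. A fit per stimulus that included UT gave 1322 (LPS) and 6379 (IL-4) for GSK461364 against DMSO, and 2977 and 333 against the other CKIs, 11 for NMS1286937 and 1 for Volasertib with IL-4. Against CKIs of the same run, GSK461364 had 1 call with LPS and 0 with IL-4, and NMS1286937 had 1 and 0.

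With 1 library of the compound or 1 DMSO replicate left out, counts against DMSO ran from 20088 to 25813 (LPS) and 9785 to 23106 (IL-4) for Volasertib, where 13115 was without the 4 h library and 12971 without DMSO replicate 1, from 9924 to 19447 and 1819 to 21337 for NMS1286937, where 12469 was without DMSO replicate 2 with LPS and 11445 without DMSO replicate 1 with IL-4, and from 17 to 96 and 73 to 256 for GSK461364, where the DMSO replicates gave 17 and 38, and 88 and 73. Against the other CKIs they ran from 0 to 4 (LPS) for Volasertib, 0 to 3 and 0 to 14 for NMS1286937, and 2387 to 3943 and 1 to 4 for GSK461364, with 33 to 96 and 75 to 256 against DMSO without its own libraries.

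With the replicate number as a replicate block, the DMSO time course gave 27066 LPS-regulated and 11611 IL-4-regulated CREs, where 27127 and 11611 were called without it. Each DMSO library left out in turn gave 24327 to 27361 and 10197 to 11862. No paired analysis was possible because each PLK1 inhibitor had 1 library per condition. Of the results for single named genes under the alternatives, 575 kept their direction and their side of the threshold, 214 kept the direction and lost the call, and 2 turned. Depth, contrast and 1 library per condition limit the weak CREs most.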
